A study of Mus musculus with 8 samples.

Results

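Myostatin, activin A and their partners were followed here in C2C12 cells, an immortalized mouse myoblast line, through 10 genes chosen by name. These were the ligand genes *Mstn*, *Gdf11* and *Inhba* and the follistatin family genes *Fst*, *Fstl1* and *Fstl3*. The receptor genes were *Acvr1*, *Acvr1b*, *Acvr2a* and *Acvr2b*. All 10 were among the 27179 genes of the expression table. Growth medium (GM) samples were dividing cells in high glucose DMEM with 10% fetal bovine serum at 50% confluence, and 3d DM samples were cells past 90% confluence that had then spent 3 days in high glucose DMEM with 2% horse serum. All dishes were coated with rat tail collagen, and the labels name no deletion, transgene or drug in either state. Each state had 2 input libraries, which measure the RNA level, and 2 libraries immunoprecipitated (IP) with an antibody against N6-methyladenosine (m6A). The comparison asked how the RNA level of these genes, and the m6A enrichment along their transcripts, differed between dividing and differentiating myoblasts. The labels do not say whether replicates came from separate cultures, so p-values measure only the spread between these libraries.

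Myostatin, GDF11 and the activins are secreted dimers of the TGF-beta family. They bind the type II receptors ACVR2A and ACVR2B, which then engage a type I receptor, chiefly ACVR1B for these ligands, and the signal passes through Smad2 and Smad3. Follistatin wraps the ligand and keeps it from the receptors, and myostatin is best known as a brake on the size of skeletal muscle. m6A is the most common internal modification of mRNA and is found mostly near the stop codon and in the 3′ untranslated region (UTR).

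The 4 input libraries carried the labelled states, but the 2 GM libraries stood apart from each other. *Myh3*, *Mymk* and *Ckm*, genes of differentiated muscle, and *Myog*, a transcription factor that drives differentiation, were higher in both 3d DM libraries, while *Mki67*, *Ccnb1* and *Myf5*, genes of dividing myoblasts, were lower (7 of the 8 state markers passed the test below, all but *Myod1*). GM replicate 1 nevertheless held more RNA of the differentiation genes than GM replicate 2, with normalized values of 1068 and 273 for *Myh3*, 1008 and 221 for *Myog*, 698 and 101 for *Mymk* and 110 and 17.1 for *Ckm*. Of 8 markers of endothelial, blood, fat, glial and epithelial cells, 3 were at 0 in every library, and the 8 together summed to between 4.18 and 14.3 per library. The values are the authors' normalized table, whose columns sum to nearly the same total, and 1 entry alone took between 24.4% and 41.3% of a column. The depth of the libraries is unknown.

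Differences were tested with limma on log2(value + 1), always as 3d DM minus GM, over 11406 genes with enough signal, and a gene was called at a Benjamini-Hochberg adjusted p under 0.05. Of all tested genes, 17.0% were called, 7.01% higher in 3d DM and 9.96% lower. The median log2 fold change of all tested genes was -0.22. Rescaling by median-of-ratios factors moved that median to 0.01 and raised the share called to 23.2%, 12.0% of the tested genes being then called higher. Of the 10 genes, 8 entered the test and 1, *Fst*, was called. Their median log2 fold change was 0.27 with the deposited values and 0.50 after rescaling. With the deposited values limma gave all genes of one level the same spread, so a gene's own replicates had no part in its p-value. A fit in which each gene kept its own spread, run after seeing the data, called 0 genes (limma, 1501 of 11406 at an unadjusted p under 0.05).

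**Figure D1:**
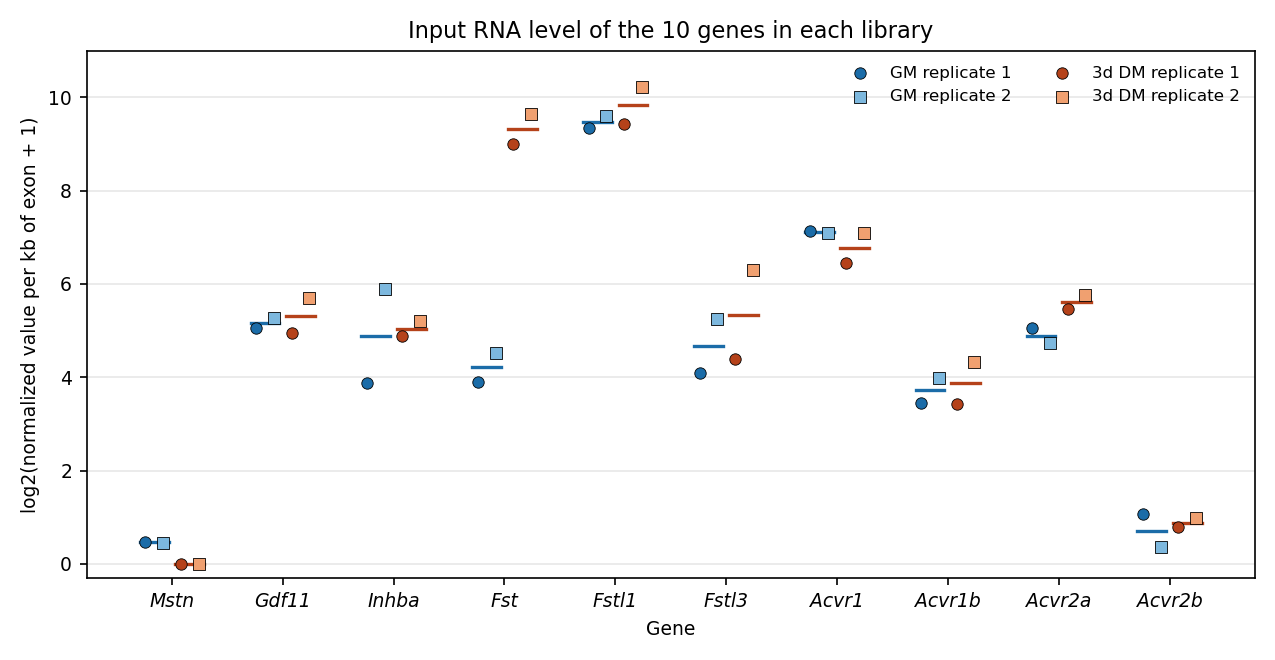
Level of each gene in each input library, as log2 of the normalized value per kb of exon plus 1, with bars at the mean of the 2 libraries of a state. *Fst* is the gene whose 3d DM points lie far above its GM points, *Mstn* is at 0 in both 3d DM libraries, and *Inhba* has its widest spread between the 2 GM libraries.

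Among the ligand genes, myostatin RNA was near the floor in both states. *Mstn* (chr1:53061640-53068079, mm10) had values of 1.04 and 1.00 in the 2 GM libraries and was at 0 in both 3d DM libraries. It did not pass the filter on low values, so it was not tested and no fold change is given. It had no m6A peak in any library. In bulk RNA, fewer cells that express a gene and less RNA per cell cannot be told apart, which holds for every level given here.

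*Gdf11*, the closest relative of myostatin, was measured well above the filter in both states. On chr10:128880524-128891718 (mm10), its normalized values were 188 and 221 in GM, against 173 and 298 in 3d DM. The 2 states overlapped, and the log2 fold change was 0.16 ± 0.47 (SE, n = 2 per state; limma, adjusted p = 0.896). The 95% interval ran from -0.77 to 1.08. After rescaling, both 3d DM values (223 and 270) lay above both GM values (160 and 220), by a narrow margin, with a log2 fold change of 0.39 and an adjusted p of 0.306 (limma; range over all alternatives 0.306 to 0.994).

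The *Gdf11* transcript was m6A-enriched in all 4 libraries, and its strongest peak lay far into the 3′ UTR rather than at the stop codon. The peak lists give, for each library and transcript, a P value and the fold enrichment of IP over input. At the distal 3′ UTR site (chr10:128882743-128883907), the fold enrichment was 7.38 and 9.04 in the 2 GM libraries, against 9.26 and 6.44 in 3d DM. The stretch common to all 4 libraries ran from 1437 to 2184 nt past the stop codon, 748 bases in all. The enrichment of the 2 states overlapped. A site nearer the stop codon (chr10:128884445-128886181) had folds of 4.86 and 3.91 in GM, against 4.01 and 2.58 in 3d DM, below the distal site in every library. Part of that site lay in the coding sequence (CDS) in GM replicates 1 and 2 and 3d DM replicate 1, and 3d DM replicate 2 kept only the 3′ UTR part.

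Adenosines are methylated mostly inside a short consensus, so 4 forms of it were searched in the bases that all 4 libraries called. These were GGACT, its variant GGACA, then the variant GGACC, and as the last form GAACT, on the transcript strand only. The distal *Gdf11* stretch held 7 of them, 9.36 per kb, against 6.63 per kb over 254 shared stretches of similar length from all genes, of which 68.5% held GGACT. Its 2 GGACT occurrences, 1494 and 1877 nt past the stop codon, are shown because they lie in the strongest *Gdf11* peak, in mm10 on the minus strand, with the motif in capitals. A match is a description of the letters and not a measured site.
*Gdf11* chr10:128883600-128883624: cgcttcctctGGACTcactgtgcct
*Gdf11* chr10:128883217-128883241: ggtagaaacaGGACTgaactgaagc

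*Inhba*, which codes for the subunit that pairs with itself to form activin A, differed more between the GM replicates than between the states. Its gene lies at chr13:16004256-16031609 (mm10). Its normalized values were 87.8 and 373 in GM, against 183 and 228 in 3d DM, so both 3d DM values fell between the GM values. The log2 fold change was 0.17 ± 0.48 (SE, n = 2 per state; limma, adjusted p = 0.887). Leaving out GM replicate 1 gave -0.87, and leaving out GM replicate 2 gave 1.21, neither past the threshold. The mean was 231 ± 202 in GM and 205 ± 31.6 in 3d DM (SD, n = 2).

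*Inhba* had the widest peak of the 10 genes. Taking the highest listed fold of each gene, *Inhba* was the highest of them in 3 of the 4 libraries. By the peak of lowest P, it was the highest in GM replicate 1 and 3d DM replicate 1 only. In GM replicate 1 and 3d DM replicate 1, a single peak of 2431 and 2401 bases covered the end of the 5′ UTR, the whole CDS and about a kilobase of 3′ UTR, with folds of 18.9 and 14.8. In GM replicate 2 and 3d DM replicate 2, the same stretch was broken into 4 and 3 peaks that covered 1324 and 1293 bases, and the peak of lowest P had folds of 7.20 and 6.61. A 3′ UTR peak in GM replicate 2 (chr13:16027692-16028052) reached 15.3. All these folds are on 1 listed transcript. On the other, the single peaks of GM replicate 1 and 3d DM replicate 1 had folds of 7.96 and 7.45. The split of the peak ran by replicate number and not by state. All 4 libraries shared 571 bases of CDS, 331 bases around the stop codon and 301 bases of 3′ UTR. The log2 ratio of enrichment was -0.24 (95% interval -1.57 to 1.10; exact permutation test, p = 0.667), and the states overlapped. Of the motifs, the shared CDS stretch held 5 and no GGACT, at 8.76 per kb against 7.14 per kb in 501 stretches of similar length. The other 2 shared stretches were below such stretches. The one around the stop codon held 1 motif (3.02 against 7.01 per kb), and the one in the 3′ UTR held 0, where 84.5% of 1239 stretches of similar length held at least 1. Of the 2 GGACC occurrences in the CDS stretch, 1 is shown as an example, on the plus strand of mm10.
*Inhba* chr13:16026537-16026561: agcgcctgctGGACCagggaaagag

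**Figure D2:**
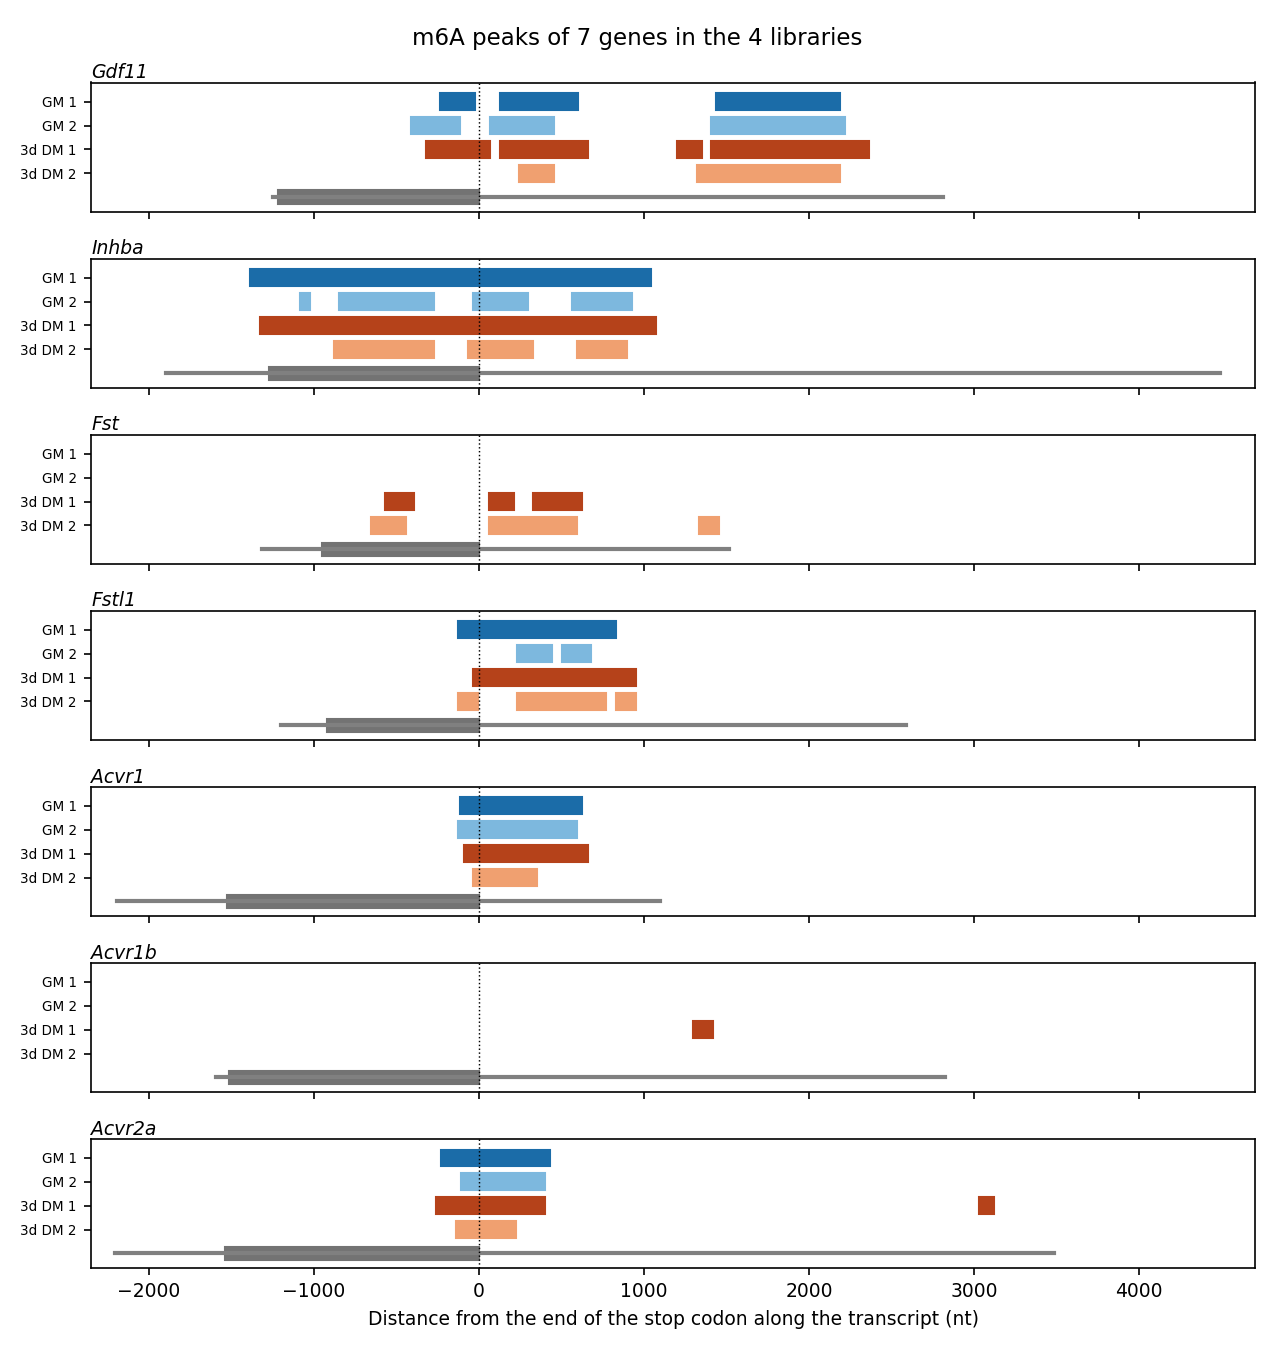
Peaks of the 7 genes with any peak, drawn along 1 transcript per gene as the distance in nt from the end of the stop codon, 1 row of bars per library. Grey boxes are the CDS and grey lines the UTRs. *Gdf11* has a separate distal peak in all 4 libraries, the *Inhba* peak is unbroken in both replicate 1 libraries only, and *Fst* has bars in the 3d DM rows alone.

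Among the follistatin family genes, follistatin itself stood out. *Fst* (chr13:114452262-114458989, mm10) had normalized values of 39.7 and 63.2 in GM, against 1459 and 2288 in 3d DM. Both 3d DM values lay above both GM values. *Fst* did not follow the differentiation genes within GM, since its lower GM value was in replicate 1, where those genes were higher. The log2 fold change was 5.16 ± 0.46 (SE, n = 2 per state; 95% interval 4.26 to 6.06; limma, adjusted p = 5.28e-27), a 35.8-fold increase. That adjusted p rests on the shared spread described above. With the rescaled values, where a gene's own replicates entered, the log2 fold change was 5.39 and the adjusted p was 0.0012. With each library left out the log2 fold change lay between 4.83 and 5.49 (limma, adjusted p up to 0.035). In those fits the lone library of a state was assumed to vary like the other state or like other genes, so their p-values do not measure the replicates of *Fst* in that state. With its own spread alone the adjusted p was 0.378. *Fst* ranked 107 by size among the 800 genes called higher in 3d DM.

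The rise of *Fst* was set against its ligand and its relative inside each library, where the scaling between libraries cancels. Per kb of exon, *Fst* stood to *Inhba* as 1.01 and 0.377 in GM, but as 17.8 and 22.4 in 3d DM. Counting *Inhbb*, the subunit of activin B, together with *Inhba* gave 0.295 and 0.210 in GM, against 5.81 and 6.03 in 3d DM. In both forms the 3d DM ratios lay above the GM ratios without overlap.

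*Fst* was also the only one of the 10 genes with peaks in both 3d DM libraries and in neither GM library. Over the tested genes, 1.72% had that pattern, and 2.63% had the opposite one. The site at chr13:114453180-114453744 was labelled 3′ UTR on 1 listed transcript and CDS and 3′ UTR on another. Its lines of lowest P had folds of 2.69 and 3.08 in 3d DM replicates 1 and 2, from different transcripts. Within a transcript, such folds were 2.66 and 3.08 on the former, and 2.69 and 2.02 on the latter. A CDS site (chr13:114455283-114455878) had folds of 1.36 and 1.79, and another site near the end of the transcript (chr13:114452349-114452470) was called in 3d DM replicate 2 alone, at 3.06. All were below the median fold of a peak line in their library, which was 3.70 and 4.07. The RNA level of *Fst* moved with this difference. Of 654 tested genes whose GM mean lay between the 2 GM values of *Fst*, 43.4% had a peak in either GM library and 21.4% in both. Of 417 genes between its 3d DM values, 87.5% had one in either 3d DM library and 76.0% in both. The part of the RNA level in the absence of GM peaks was not tested. The bases that both 3d DM libraries called were placed on the transcript where the first site is labelled 3′ UTR alone. There, a 3′ UTR stretch of 268 held 2 motifs, a GGACT and a GGACC. A stretch of 150 nearer the stop codon held 0, and one of 130 in the CDS held 1, a GAACT. These rates were not set against other stretches. The GGACT, 344 nt past the stop codon of that transcript and within the CDS of the other, is shown on the minus strand of mm10.
*Fst* chr13:114453448-114453472: aggaagaccaGGACTacagctttcc

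*Fstl1*, a secreted glycoprotein with a follistatin domain, had the highest level of the 10 genes in both states. Its normalized values were 2334 and 2785 in GM, against 2502 and 4311 in 3d DM (chr16:37777055-37836516, mm10). The states overlapped, with a log2 fold change of 0.37 ± 0.41 (SE, n = 2 per state; limma, adjusted p = 0.656). After rescaling it was 0.60, with an interval from 0.02 to 1.17 and an adjusted p of 0.118 (limma; range over all alternatives 0.118 to 0.966). It carried a peak in all 4 libraries at low enrichment, with folds of 2.78 and 1.85 in GM, against 2.78 and 2.36 in 3d DM. As for *Inhba*, the replicate 1 libraries had 1 continuous peak (955 and 986 bases), and the replicate 2 libraries had 2 and 3 shorter ones (389 and 779 bases in all). In the 209 bases from 232 to 440 nt past the stop codon that all libraries called, the 1 motif was a GAACT, on the plus strand. That is 4.78 per kb against 6.32 per kb, and 71.3% of 1814 stretches of similar length held at least 1 of the 4 motifs. The other shared stretch, of 180 bases, held 0, where 66.0% of 2247 stretches of similar length held at least 1.
*Fstl1* chr16:37834266-37834290: gagaaacattGAACTagccctgctg

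*Fstl3*, a secreted antagonist of activins and myostatin, was low. Its normalized values were 31.2 and 72.2 in GM, against 38.8 and 152 in 3d DM (chr10:79777274-79782630, mm10). In both states replicate 2 was above replicate 1, by 2.31 times in GM and 3.92 times in 3d DM, and the states overlapped. The log2 fold change was 0.69 ± 0.55 (SE, n = 2 per state; limma, adjusted p = 0.485). *Fstl3* had no peak in any library. Per kb of exon, *Fst* reached 0.736 and 0.670 of the *Fstl1* level in 3d DM replicates 1 and 2, against 0.0215 and 0.0286 in GM.

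**Figure D3:**
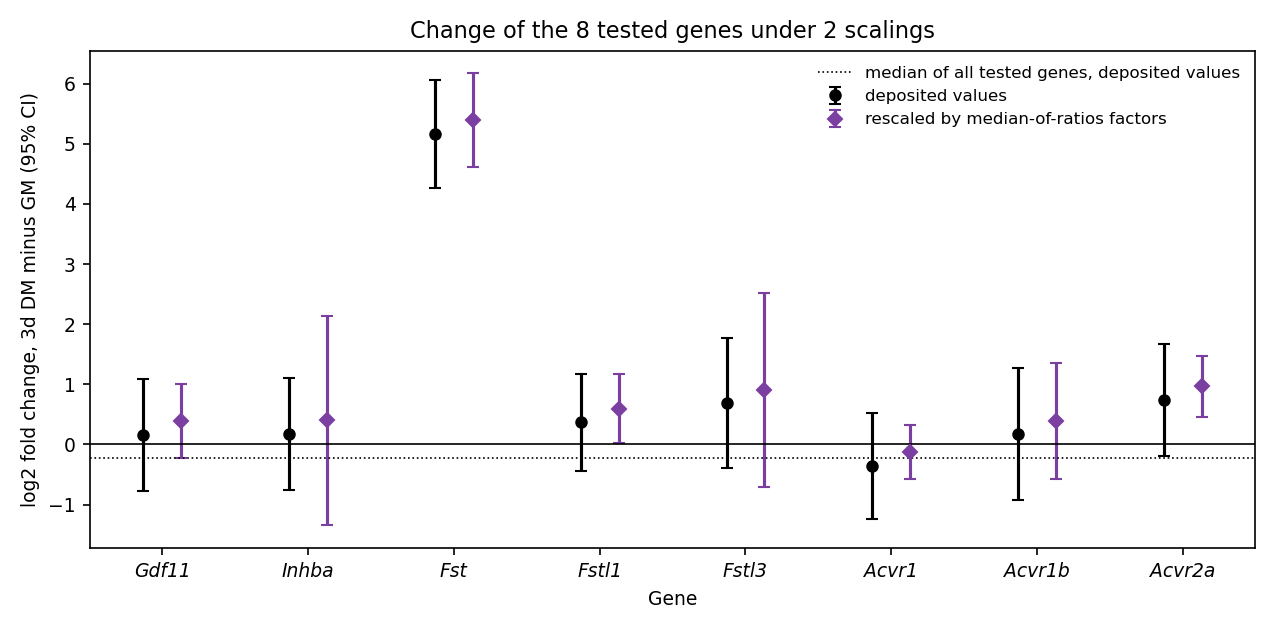
Log2 fold change (3d DM minus GM) of the 8 tested genes with its 95% interval, for the deposited values and after rescaling by median-of-ratios factors. The interval of *Fst* lies above 4 under both scalings, and those of *Acvr2a* and, narrowly, *Fstl1* clear 0 only after rescaling.

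Among the type II receptors, *Acvr2a* was the gene with clear signal. Its normalized values were 183 and 145 in GM, against 244 and 303 in 3d DM (chr2:48814109-48903264, mm10), and both 3d DM values lay above both GM values. The log2 fold change was 0.74 ± 0.47 (SE, n = 2 per state; 95% interval -0.19 to 1.66; limma, adjusted p = 0.338), so it was not called. After rescaling, the log2 fold change was 0.97 and the adjusted p was 0.023, and after rescaling without the largest entry of the table they were 0.84 and 0.04, the lowest of a range up to 0.887 over all alternatives. *Acvr2b* had 11.7 and 3.02 in GM, against 7.73 and 10.3 in 3d DM (chr9:119401583-119442148, mm10). It stayed under the filter, was not tested, and had no peak.

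*Acvr2a* carried 1 peak over the stop codon in all 4 libraries. At chr2:48898544-48900217 the fold enrichment was 14.0 and 13.0 in GM, against 11.5 and 7.52 in 3d DM. Both GM values were above both 3d DM values, as at 2 of the 6 such sites of these genes and at 21.3% of the 5976 sites found in all 4 lists, while 3d DM was higher without overlap at 9.12%. The log2 ratio was -0.54 (95% interval -1.50 to 0.43; exact permutation test, p = 0.333, the smallest that 2 libraries against 2 allow). A further peak in the 3′ UTR, of fold 4.94, was called in 3d DM replicate 1 alone. The 331 bases common to all libraries, from 110 nt before to 220 nt past the end of the stop codon, held 5 of the motifs. That is 15.1 per kb, where 1204 stretches of similar length held 7.01 per kb. Of those stretches, 42.2% held GGACT, and *Acvr2a* held it 2 times in a row, 28 and 34 nt past the stop codon. Both can be read in the first sequence below, the second of them in lower case, and the second sequence is a GGACA further on. Both are on the plus strand of mm10.
*Acvr2a* chr2:48899804-48899828: tacacactgaGGACTgggactctga
*Acvr2a* chr2:48899886-48899910: gatgcctccaGGACAtgtacgcaag

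Among the type I receptors, *Acvr1*, best known as a receptor for bone morphogenetic proteins, had the highest level of the 4 receptor genes. Its normalized values were 481 and 467 in GM, against 295 and 466 in 3d DM (chr2:58446438-58566828, mm10). The lowest GM value was above the highest 3d DM value by less than 1 unit, and after rescaling the states overlapped. The log2 fold change was -0.35 ± 0.45 (SE, n = 2 per state; limma, adjusted p = 0.704). *Acvr1b*, the type I receptor of the activins, had 44.0 and 65.2 in GM, against 43.0 and 84.8 in 3d DM (chr15:101174072-101213684, mm10). Its 3d DM range enclosed its GM range, with a log2 fold change of 0.17 ± 0.56 (limma, adjusted p = 0.903).

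*Acvr1* was m6A-enriched over the stop codon and the first part of the 3′ UTR in all 4 libraries (chr2:58446881-58447668). The fold enrichment was 9.37 and 7.74 in GM, against 6.57 and 6.18 in 3d DM, with both GM values higher, and the log2 ratio was -0.42 (95% interval -1.34 to 0.50; exact permutation test, p = 0.333). The median over all 5976 sites was -0.10, and with each fold divided by the median of its library the *Acvr1* ratio was -0.31 and that of *Acvr2a* -0.43. The shared 390 bases held a GGACC and a GAACT, 5.13 motifs per kb against 6.89 per kb in 934 stretches of similar length, and the former, 53 nt past the stop codon, is shown on the minus strand of mm10. *Acvr1b* had 1 small peak in the 3′ UTR, of 120 bases and fold 7.41, in 3d DM replicate 1 alone.
*Acvr1* chr2:58447474-58447498: tgtccagctgGGACCtaatgctggc

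**Figure D4:**
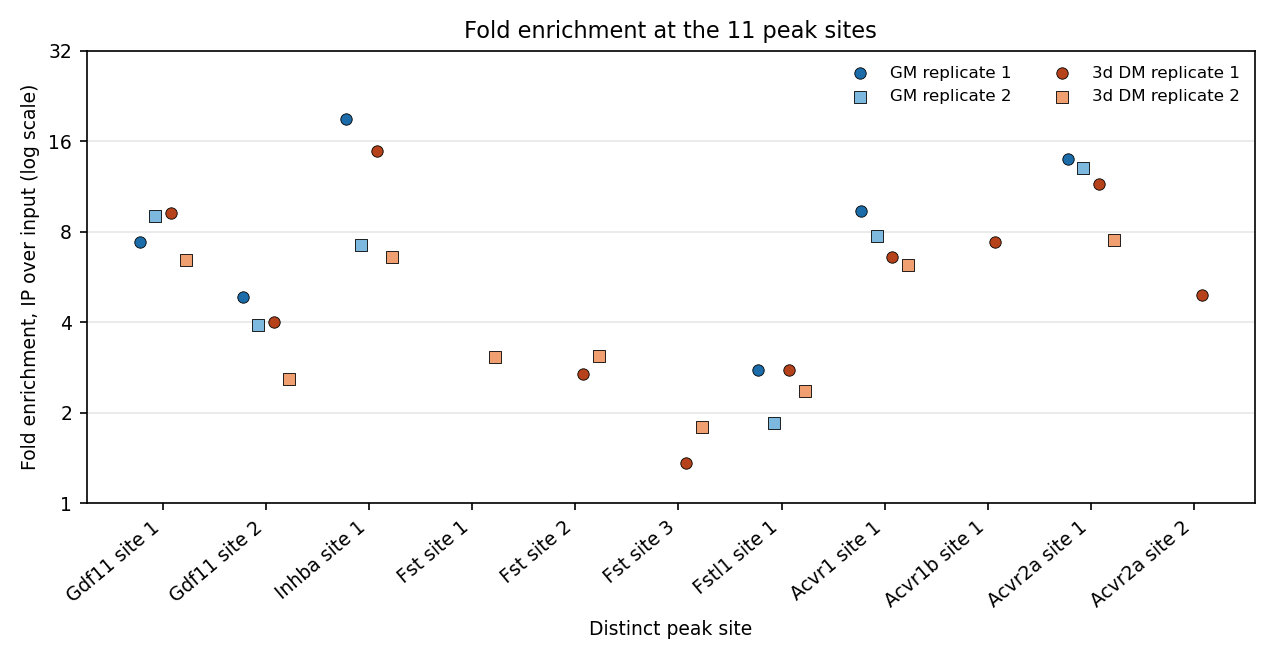
Fold enrichment of IP over input at the 11 distinct peak sites of the 10 genes, on a log scale, 1 point per library that called the site. At *Acvr1* site 1 and *Acvr2a* site 1 both GM points are above both 3d DM points, and the 3 *Fst* sites have no GM point.

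Over the 10 genes, 5 had a peak in all 4 libraries, namely *Gdf11*, *Inhba*, *Fstl1*, *Acvr1* and *Acvr2a*, and 7 had one in at least 1 library. Among the 8 tested genes these were 5 and 7, where 42.0% and 75.1% of all tested genes had such peaks. Those shares also count any tested entry without a symbol or a protein-coding transcript, which could have no listed peak, so they may be too low. Lines that shared at least 1 bp merged into 11 distinct sites, 6 of them found in all 4 lists. None of the 6 passed a limma test of enrichment over the 5976 sites, a test that called 0 sites in all, 227 having an unadjusted p under 0.05 (with the replicate number as a block, limma called 1 site). Folds of 2 libraries against 2 give this test little power, and the intervals above show which differences remain possible.

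Per kb of exon, the order of the RNA levels in GM was *Fstl1* (709), *Acvr1* (138), *Inhba* (36.1), *Gdf11* (35.0), *Acvr2a* (28.8), *Fstl3* (26.5), *Fst* (18.0), *Acvr1b* (12.4), *Acvr2b* (0.69) and *Mstn* (0.38), as means of 2 libraries. The exon length joined all curated RefSeq exons, 5833 bases for *Gdf11*, whose transcript in the peak lists has 4062. The place of *Gdf11* rests on that length. The ranges over the 2 libraries of *Fstl1* and *Acvr1* each lay above that of the next gene, as did *Acvr1b* over *Acvr2b*. That of *Gdf11* lay above *Acvr2a* only narrowly, 32.24 against 32.21 at the closest. The ranges of the other neighbours overlapped, although *Fstl3* was above *Fst*, and *Fst* above *Acvr1b*, in each GM library. In 3d DM, *Fst* (655) moved to the second place behind *Fstl1* (944). The ranges of those 2 genes overlapped, although *Fstl1* was higher in each library. *Acvr1* (111) came next and was separate from both of its neighbours. *Fstl3* (48.9), *Acvr2a* (48.1), *Gdf11* (40.4) and *Inhba* (32.2) each overlapped the gene after them within this group, and *Acvr1b* (14.5), *Acvr2b* (0.85) and *Mstn* followed, each separate from the one before.

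With the deposited values, all 3d DM libraries were above all GM libraries for 2 of the 8 tested genes, *Fst* and *Acvr2a*, where 16.8% of all tested genes were. The reverse held for 1, *Acvr1*, against 37.0%. Together, 3 of the 8 did not overlap in either direction, against 53.8% of all tested genes. After rescaling these became 4 genes (*Gdf11* and *Fstl1* in addition) against 34.0%, and 0 genes against 33.1%, 67.1% of all tested genes then not overlapping in either direction.

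The wider TGF-beta family and its signalling, receptors of bone morphogenetic proteins included, were read from 47 further genes in 6 lists, the other pathway genes. Among them, 30 were tested and 5 were called, 4 higher in 3d DM and 1, *Gdf15*, lower. That share was close to the background, the 17.0% called of all tested genes. Their median log2 fold change was 0.15, where that of all tested genes was -0.22. Rescaled, 10 were called, 8 higher and 2 lower, beside 23.2% of all tested genes. Of these, 4 were also called with the deposited values, and the median was 0.38. The 6 added were *Inhbb*, *Tgfb2*, *Ltbp3*, *Bmpr2* and *Smad3*, higher in 3d DM, and *Fkbp1a*, lower, and *Dcn* was lost. Without 3d DM replicate 1, 0 of the 30 were called, when limma called 145 of all tested genes, and without 3d DM replicate 2, 1 was, when limma called 676. The fold changes stayed close in size for some of them, as for *Tgfb3* (2.79 and 2.19) and *Pmepa1* (1.89 and 1.46). Of the 30 tested genes, 16 had a peak in all 4 libraries and 26 in at least 1, beside 42.0% and 75.1% of all tested genes.

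Among the other ligand subunits, 5 of 8 were tested, 1 rose and 1 fell. *Tgfb3*, the TGF-beta 3 ligand, was the most abundant gene of the list. It had 482 and 248 in GM, against 1582 and 2401 in 3d DM. Its log2 fold change was 2.49 ± 0.43 (limma, adjusted p = 2.18e-07, and 0.379 with its own spread), and 2.01 to 2.97 with each library left out. *Gdf15*, a stress-induced hormone, had 286 and 431 in GM, against 29.9 and 126 in 3d DM, a log2 fold change of -2.49 ± 0.49 (limma, adjusted p = 6.86e-06). With each library left out it ranged from -3.51 to -1.47, the latter without 3d DM replicate 1, when it was not called (limma, adjusted p = 0.168; range over all alternatives 1.86e-06 to 0.466). *Inhbb*, named after its values were seen, had 142 and 200 in GM, against 252 and 412 in 3d DM, and was called under both rescalings only. Its log2 fold change was 0.93 with the deposited values and 1.16 with median-of-ratios factors (limma, adjusted p = 0.18 and 0.038; range over all alternatives 0.038 to 0.769).

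Among the other secreted or membrane antagonists, 2 of 9 were tested and 1, *Dcn*, was called. *Dcn* codes for decorin, a matrix proteoglycan that binds TGF-beta and myostatin. Its values were 430 and 17.1 in GM, against 409 and 685 in 3d DM, so the states overlapped, and the log2 fold change of 2.59 was 0.30 without GM replicate 2. After rescaling *Dcn* was no longer called (limma, adjusted p = 0.168; range over all alternatives 4.23e-10 to 0.954). Of the genes for maturation and latency, 3 of 7 were tested and 0 were called (limma, 0 at an unadjusted p under 0.05). *Bmp1*, a protease that frees myostatin from its latent complex and the most abundant of them, had 1449 and 1378 in GM, against 1314 and 1834 in 3d DM.

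Of the other receptors, 4 of 7 were tested and 1 rose. *Tgfbr2*, the type II receptor of TGF-beta, had 1389 and 663 in GM, against 1964 and 2293 in 3d DM, a log2 fold change of 1.14 ± 0.42 (limma, adjusted p = 0.041, and 0.215 with the replicate number as a block). The call was also lost with the filter at 3 libraries (limma, adjusted p = 0.051), without the trend (0.075) and with each library left out (0.098 to 0.842), where the log2 fold change ranged from 0.61 to 1.68. All 11 genes of the Smad list were tested and 0 were called with the deposited values (limma, 1 at an unadjusted p under 0.05; 2 called after rescaling). The most abundant, *Fkbp1a*, whose product binds type I receptors, had 3891 and 3292 in GM, against 1669 and 2000 in 3d DM (log2 fold change -0.97 ± 0.41, limma, adjusted p = 0.092). Of the Smad2/3 response genes, all 5 were tested and 1 rose. *Pmepa1*, a feedback inhibitor of Smad signalling, was the most abundant of them. Its values were 1329 and 1915 in GM, against 4375 and 5897 in 3d DM. The log2 fold change was 1.67 ± 0.41 (limma, adjusted p = 0.0006, and 0.378 with its own spread), and 1.41 to 1.93 with each library left out.

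**Figure D5:**
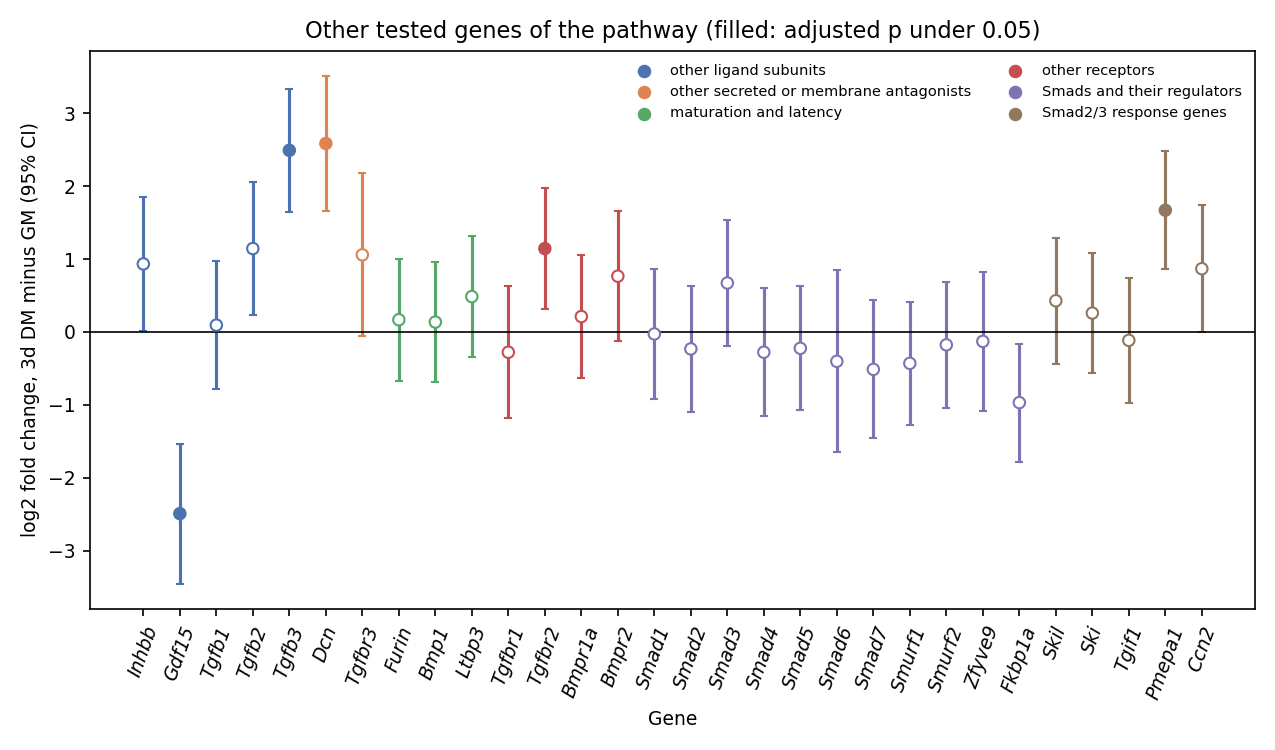
Log2 fold change (3d DM minus GM, deposited values) of the 30 other tested genes of the pathway with 95% intervals, coloured by list, filled where the adjusted p was under 0.05. The 11 genes of the Smad list all have open symbols, and the filled symbols are *Gdf15*, *Tgfb3*, *Dcn*, *Tgfbr2* and *Pmepa1*.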

How the data were processed

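MeRIP-seq and RNA-seq of C2C12 cells were taken from the deposited files, grouped by the labels. Per the labels and methods, the authors used HISAT2 (v2.1.0) for alignment to the mm10 genome, and exomePeak for peaks of each sample at P ≤ 0.05. The lists deposited by the authors give a p-value and a fold (the ratio of IP over input) for each protein-coding transcript. No listed p-value was above 0.0107 (exomePeak, GM replicate 1), so the lists hold no weaker peaks up to 0.05. The deposited expression table holds a normalized signal made with edgeR, not whole reads. The counter and annotation are not given in the sources used here. Entrez identifiers were matched to RefSeq symbols (GRCm38.p6) for 98.7% of tested genes.

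Vanishingly small values of the expression table were set to 0. Genes needed a value of 25.1, which is 2 cpm of a column's total, in at least 2 of 4 libraries. Expression was tested with limma (3.58.1, R 4.3.3), intensity trend and pseudocount 1, and log2 fold changes on that scale understate changes of low genes. Sites were tested with limma on log2 fold, taking the line of lowest P per library. Motifs and transcript positions came from GENCODE M21 and the mm10 genome. The limma steps were tested on simulated data. For expression, these gave all genes of a level the same spread, so they cannot show whether that assumption holds for the deposited values. The genes and lists were chosen with earlier results of these data known. Named genes were the 10 genes, called pathway genes, the most abundant gene of each list and the 8 state markers. A gene of the lists is not reported here. Plots used matplotlib 3.10.9.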

Additional observations from a re-analysis of the deposited data

How the results depend on the processing

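The call of *Fst* alone among the 10 genes held under pseudocounts of 0.1 and 4, both other filters, limma without the trend, robust limma and each library left out. Median-of-ratios rescaling and rescaling without the largest entry each called 2 of the 10 genes, *Acvr2a* being added, and called 10 and 9 other pathway genes. With each gene's own spread, 0 of the 10 genes and 0 other pathway genes were called (limma, chosen after seeing the data), and the 2 residual degrees of freedom limit that fit. The replicate numbers pair nothing in the labels. With the replicate number as a block, limma called 1 of the 10 genes and 4 other pathway genes, *Tgfbr2* being lost, and 0 of the 6 sites, and replicate 1 deviations of the 2 states correlated at 0.29 for expression and 0.13 for enrichment.

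With each library left out, 1 of the 10 genes was called each time, and between 0 (without 3d DM replicate 1) and 4 other pathway genes, 1 without 3d DM replicate 2. Log2 fold changes crossed 0 for *Gdf11* (-0.23 to 0.55), *Inhba* (-0.87 to 1.21), *Fstl1* (-0.027 to 0.76), *Fstl3* (-0.29 to 1.66), *Acvr1b* (-0.31 to 0.65) and *Myod1* (-0.45 to 0.24), and log2 enrichment ratios at *Fstl1* (-0.12 to 0.47), the distal *Gdf11* site (-0.34 to 0.18) and *Inhba* (-0.93 to 0.46). *Myod1* reached 0.13 with median-of-ratios rescaling and 0.00023 without the largest entry, and the distal *Gdf11* site 0.025 with folds divided by the library median. The cause was not tested. Peaks with a p-value of at most 1e-05 left 7 distinct sites, 4 genes with a peak in all 4 libraries and 6 with any. Peaks with a fold of at least 4 left 8 sites, 4 genes with a peak in all 4 libraries and 5 with any. No *Fst* peak reached that fold, the highest being 3.08. Merging only lines that shared at least 50% of the shorter line gave 13 sites. Leaving out lists gave 10 to 12 sites, 5 genes with a peak in every list and 6 to 7 with any. Read numbers are not known, so a missing peak is no measure of absent m6A.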
